A study of Mus musculus with 24 samples.

Results

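The 9 genes described here, *P2ry12*, *P2ry13*, *Gpr34*, *Cx3cr1*, *Csf1r*, *Siglech*, *Tmem119*, *Olfml3* and *Sall1*, are markers of homeostatic, or resting, microglia. They were picked by symbol from the 33000 genes of the count table, and all 9 have a row. Their counts come from 24 3'Pool-seq libraries, a method that reads the 3′ end of polyadenylated RNA, made from frontal cortex RNA of 3 wild-type (WT) and 3 homozygous GFAP-IL6 mice on a C57BL/6 background, all 3 months old. GFAP-IL6 mice carry a transgene in which the astrocyte promoter of *Gfap* drives the cytokine gene *Il6*. No other allele or agent is named for either genotype. Every mouse is present in 4 libraries, since tagmentation, the cutting and tagging of amplified cDNA, was done on 2 ng and on 1 ng, and both amounts occur in a set A and a set B. What distinguishes these sets is not given in the labels. The 4 libraries of a mouse share its RNA, so the mouse was the replicate (n = 3 per genotype).

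Microglia are the resident macrophages of the brain. At rest they scan the tissue with fine processes and carry a set of surface receptors through which neurons, astrocytes and damaged cells signal to them. Loss of some of these receptors, *P2ry12* above all, is widely used as a sign that microglia have left the resting state, whereas lineage genes such as *Aif1* and *C1qa* are kept or raised in reactive cells. Several of the 9 genes are also used by other macrophages, among them *Csf1r* and *Cx3cr1*.

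The promoters are shown for each of the 5 genes with a single window in the table used, whatever their values, so that genes that passed between genotypes and genes that did not pass can be read side by side. *P2ry12* and *P2ry13*, which code for related ADP receptors, are neighbours on the minus strand of mouse chromosome 3 (mm10, chr3:59216272-59262871 and chr3:59207892-59210882), and both lie inside *Med12l*, a gene on the opposite strand. *Siglech* lies on the plus strand of chromosome 7 (chr7:55768178-55778925). Each window runs from 250 bases before to 50 after the RefSeq start on GRCm38.p6, 5′ to 3′ on the strand of the gene, at chr3:59262936-59263235 for *P2ry12*, chr3:59210833-59211132 for *P2ry13*, chr7:55767934-55768233 for *Siglech*, chr9:120068247-120068546 for *Cx3cr1* and chr3:103737952-103738251 for *Olfml3*. Capitals mark GAGGAA, the core bound by the myeloid factor PU.1, which reads as TTCCTC where it lies on the other strand. They also mark TTCNNNGAA, the motif of STAT factors, which reads alike on both strands. The 2 motifs overlap in none of the windows shown.
P2ry12: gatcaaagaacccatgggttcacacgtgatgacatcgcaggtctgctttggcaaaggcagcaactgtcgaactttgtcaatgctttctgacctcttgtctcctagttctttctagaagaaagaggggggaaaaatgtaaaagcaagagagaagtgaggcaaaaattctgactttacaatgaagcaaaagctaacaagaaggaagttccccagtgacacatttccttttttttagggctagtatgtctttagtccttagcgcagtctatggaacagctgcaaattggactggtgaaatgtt
P2ry13: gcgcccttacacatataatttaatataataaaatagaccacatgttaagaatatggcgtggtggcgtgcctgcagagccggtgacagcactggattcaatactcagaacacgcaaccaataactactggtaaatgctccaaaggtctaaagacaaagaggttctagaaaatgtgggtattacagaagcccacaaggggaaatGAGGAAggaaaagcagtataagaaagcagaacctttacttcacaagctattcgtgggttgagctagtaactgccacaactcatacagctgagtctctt
Siglech: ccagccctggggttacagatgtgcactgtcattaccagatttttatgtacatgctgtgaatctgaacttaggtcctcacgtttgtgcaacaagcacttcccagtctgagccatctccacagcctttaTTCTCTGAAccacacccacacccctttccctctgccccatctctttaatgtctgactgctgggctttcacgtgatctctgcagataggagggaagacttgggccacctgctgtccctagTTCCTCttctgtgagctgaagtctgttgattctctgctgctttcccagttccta
Cx3cr1: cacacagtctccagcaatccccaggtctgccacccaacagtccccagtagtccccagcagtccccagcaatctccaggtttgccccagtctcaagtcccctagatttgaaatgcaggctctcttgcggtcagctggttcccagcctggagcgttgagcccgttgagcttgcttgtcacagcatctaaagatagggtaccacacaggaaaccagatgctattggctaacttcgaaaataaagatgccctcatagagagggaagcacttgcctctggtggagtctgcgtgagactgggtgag
Olfml3: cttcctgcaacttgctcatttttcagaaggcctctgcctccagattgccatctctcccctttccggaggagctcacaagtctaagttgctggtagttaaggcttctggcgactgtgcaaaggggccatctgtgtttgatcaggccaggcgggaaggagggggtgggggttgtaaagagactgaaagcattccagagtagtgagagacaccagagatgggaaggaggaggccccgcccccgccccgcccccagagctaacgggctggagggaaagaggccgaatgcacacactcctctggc
*Sall1* has several windows, so windows were at hand for 6 of the 9 genes, and not for *Tmem119*, *Csf1r* and *Gpr34*. The PU.1 core was in the windows of 2 of these 6 genes, *P2ry13* and *Siglech*, and in 28.3% of 32851 windows of all genes. The STAT motif was in 1 of the 6, *Siglech*, and in 8.3% of all windows. The counts out of 6 are by gene and the shares are by window, of which the 6 genes had 8. No match of either motif was found in the windows of *P2ry12*, *Cx3cr1*, *Olfml3* and *Sall1*. These are matches of letters, and binding was not measured.

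The labels were first checked on the transgene. *Il6* was at 0.26, 0.166 and 0 CPM (counts scaled to a common library size, after TMM scaling of the summed libraries) in WT mice 1 to 3 and at 3.16, 1.58 and 4.23 CPM in GFAP-IL6 mice 1 to 3. *Gfap*, whose product marks reactive astrocytes, had a log2 fold change of 2.44 (SE 0.185, edgeR adjusted p = 1.59e-06). Between 1524165 and 12256374 reads were counted per library and between 7852743 and 37582644 per mouse, and GFAP-IL6 mouse 3 was the deepest. The 9 genes had between 3 and 1075 counts in a library and between 23 and 3720 in a mouse.

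Between genotypes, 4 of the 9 genes passed the test on the counts summed per mouse, and all 4 were higher in GFAP-IL6 mice: *Olfml3*, *Cx3cr1*, *Csf1r* and *Tmem119*. Over the 14621 genes tested, 1.74% were higher at an edgeR adjusted p under 0.05 and 0.0547% lower. None of the 9 was lower by edgeR or by DESeq2, and none was lower at an unadjusted p under 0.05, while 6 were higher at that level. For all genes tested between genotypes, the share at that unadjusted level is not given, here or for the lists below. Only *Olfml3* among the 9 also had an absolute log2 fold change above 1, the second criterion of a differentially expressed gene (DEG), and 1.2% of all genes tested were DEGs in that direction. *P2ry13* and *Siglech* had no overlap between genotypes either but missed the threshold, and *P2ry12*, *Gpr34* and *Sall1* overlapped. Thus 6 of 9 genes had every GFAP-IL6 mouse above every WT mouse, against 8.43% of all genes tested. The median log2 fold change of the 9 genes was 0.56, and that of all genes tested was -0.0069. In bulk tissue, fewer or more microglia and less or more RNA per cell cannot be told apart.

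**Figure D1:**
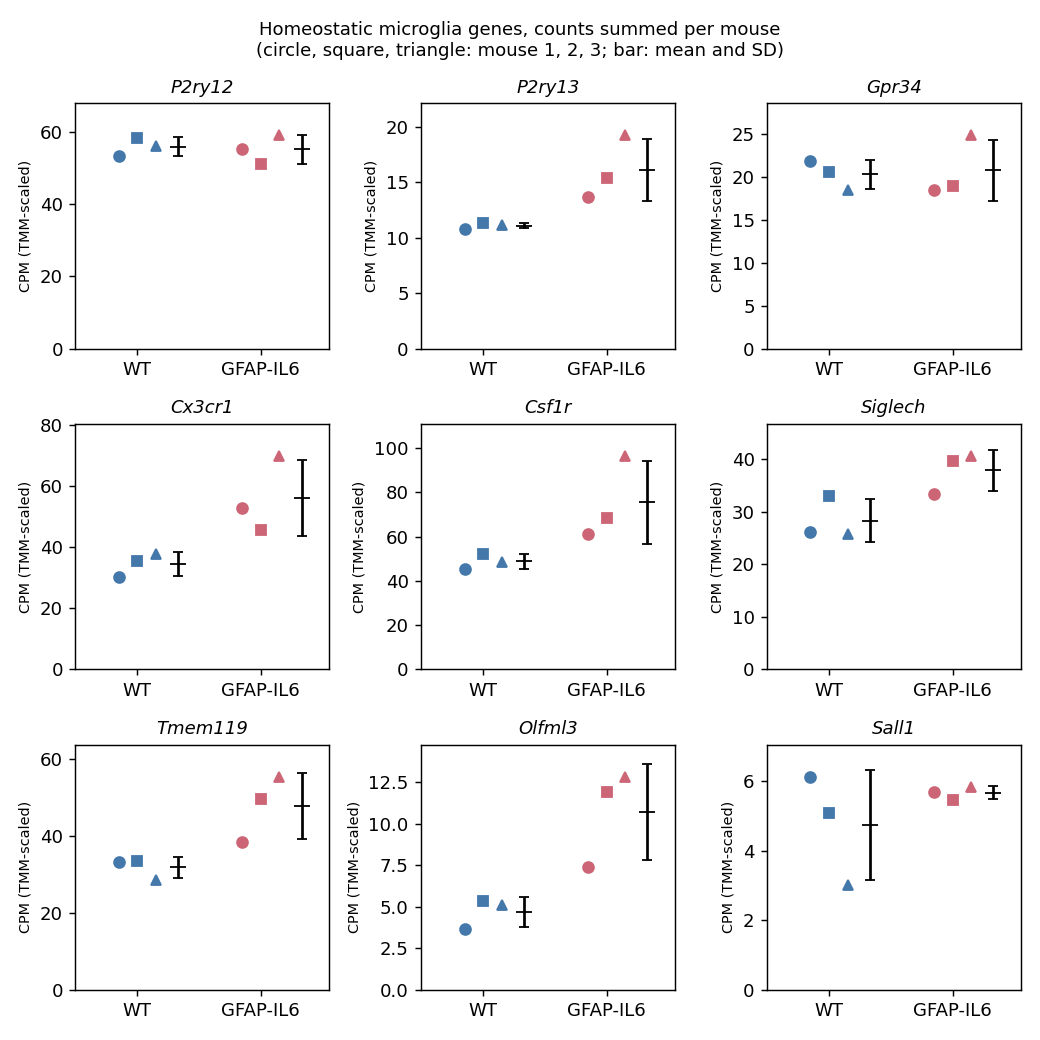
CPM of each gene (y axis, from 0, TMM-scaled) in WT (blue) and GFAP-IL6 (red) mice, with the 4 libraries of a mouse summed. Symbols are single mice and bars the mean and SD of 3 mice. *P2ry12*, *Gpr34* and *Sall1* overlap between genotypes, and the other 6 genes do not.

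The first group of genes codes for G protein-coupled receptors that sense nucleotides and lipids. *P2ry12*, the ADP receptor through which microglial processes are drawn to injury, was at 53.2, 58.3 and 56.0 CPM in the WT mice and at 55.3, 51.0 and 58.9 CPM in the GFAP-IL6 mice. All 6 mice thus lay within a narrow band, and the genotypes overlapped. The log2 fold change was -0.02 (SE 0.0928, 95% interval -0.22 to 0.18, edgeR adjusted p = 0.985), so that the interval runs from 0.861 to 1.13 times the WT level.

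*P2ry13*, the second ADP receptor of the pair, was at 10.8, 11.3 and 11.2 CPM in WT and 13.7, 15.4 and 19.2 CPM in GFAP-IL6 mice. The 3 WT mice were almost level, and each GFAP-IL6 mouse was above them. The log2 fold change of 0.56 (SE 0.146, 95% interval 0.25 to 0.87) did not pass over all genes tested (edgeR adjusted p = 0.0765). It did pass in 3 of 14 fits. Among them were edgeR without a filter on low counts (adjusted p = 0.0116) and limma-voom on all 24 libraries (adjusted p = 0.00508). Over all genes these called 462 and 544, against 263 with the main test. The surrounding *Med12l* had a log2 fold change of -0.26 (edgeR adjusted p = 0.743) and shares 9 exon bases with *P2ry12* and 0 with *P2ry13*. Whether reads were counted by strand is not stated.

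*Gpr34*, a receptor for lysophosphatidylserine on chromosome X (chrX:13632089-13640858, inside *Cask* on the opposite strand, with no shared exon base), was at 21.9, 20.6 and 18.5 CPM in WT and 18.5, 19.0 and 24.9 CPM in GFAP-IL6 mice. GFAP-IL6 mice 1 and 2 lay at the low end of the WT mice, and only GFAP-IL6 mouse 3 stood above them. The log2 fold change was 0.04 (SE 0.135, 95% interval -0.25 to 0.33, edgeR adjusted p = 0.975), and it was -0.13 without GFAP-IL6 mouse 3.

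Other genes of purine signalling were at low levels. Of 12 such genes, 8 were tested and none passed by edgeR or DESeq2, with 2 at an unadjusted edgeR p under 0.05. Their median log2 fold change was 0.29. *P2rx4*, an ATP-gated channel, was at 19.4 CPM in WT and 22.3 CPM in GFAP-IL6 mice (log2 fold change 0.20, edgeR adjusted p = 0.737). *Entpd1*, which breaks down extracellular ATP, was at 7.59 and 9.65 CPM (log2 fold change 0.37, edgeR adjusted p = 0.515).

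The second group holds the receptors for the neuronal chemokine CX3CL1 and for the growth factors CSF1 and IL34. *Cx3cr1* was at 30.2, 35.4 and 37.8 CPM in WT and 52.7, 45.6 and 69.8 CPM in GFAP-IL6 mice. It rose without overlap, by a log2 fold change of 0.72 (SE 0.141, 95% interval 0.42 to 1.02, edgeR adjusted p = 0.0119), or 1.65-fold. Its annotated span on the minus strand of chromosome 9 (chr9:119901616-120069879) crosses several other genes, with which it shares no exon base except 78 bases of the antisense RNA *Gm33858*.

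*Csf1r*, a receptor kinase that microglia need to survive, was at 45.4, 52.0 and 48.7 CPM in WT and 61.3, 68.5 and 96.5 CPM in GFAP-IL6 mice. It rose by a log2 fold change of 0.64 (SE 0.139, 95% interval 0.35 to 0.94, edgeR adjusted p = 0.0229), or 1.56-fold, with GFAP-IL6 mouse 3 far above the other 2. *Csf1r*, on chromosome 18, shares 873 exon bases with *Hmgxb3* on the opposite strand, so their reads cannot be told apart there if strand was not used. The last 300 bases of 1 of its 6 annotated transcripts, the stretch that a 3′ method reads, lie wholly within *Hmgxb3* exons, and those of the other 5 do not. *Hmgxb3* had a log2 fold change of -0.23 (edgeR adjusted p = 0.743).

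The ligands of these receptors, made mostly by neurons and glia, did not pass. *Cx3cl1* was at 815.1 ± 37.7 CPM (SD, n = 3) in WT and 768.5 ± 94.99 CPM in GFAP-IL6 mice (log2 fold change -0.08, edgeR adjusted p = 0.890). *Il34* was at 36.5 and 35.5 CPM (log2 fold change -0.05, edgeR adjusted p = 0.957). *Csf1* was at 6.61 and 8.88 CPM without overlap between genotypes (log2 fold change 0.42, edgeR unadjusted p = 0.0246, adjusted p = 0.427). The whole list held 20 ligands, TGF-beta pathway genes and transcription factors around the 9 genes. Of these 20, 19 were tested, 3 rose and none fell by edgeR. At an unadjusted edgeR p under 0.05 there were 6, 0 of them lower, and 0 were lower by DESeq2. The 3 were *Irf8* (log2 fold change 1.24, edgeR adjusted p = 0.00612) and *Spi1* (1.19, 0.0242), which code for myeloid transcription factors, and *Tyrobp* (0.86, 0.00102), which codes for an adaptor of surface receptors. All 3 are also in the general microglia and macrophage list below. *Spi1* passed in 8 of 14 fits and *Irf8* in 13, and without GFAP-IL6 mouse 3 their adjusted p was 0.336 and 0.0645. *Spi1* also missed without each of the 3 WT mice (adjusted p from 0.0562 to 0.0744), at equal depth (0.0623) and with a replicate block (0.0752). The list had a median log2 fold change of 0.05, and its most highly counted gene, the neuronal and myeloid factor *Mef2c*, had a log2 fold change of -0.13 (edgeR adjusted p = 0.851).

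The third group holds 2 membrane proteins and a secreted one. *Siglech*, a sialic acid-binding lectin that pairs with the product of *Tyrobp*, was at 26.2, 33.1 and 25.7 CPM in WT and 33.4, 39.8 and 40.7 CPM in GFAP-IL6 mice. WT mouse 2 lay just under the lowest GFAP-IL6 mouse. The log2 fold change of 0.42 (SE 0.121, 95% interval 0.17 to 0.68) did not pass (edgeR adjusted p = 0.129).

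*Tmem119*, a membrane protein used to tell microglia from other macrophages (chr5:113793729-113800516, minus strand), was at 33.2, 33.5 and 28.5 CPM in WT and 38.4, 49.5 and 55.4 CPM in GFAP-IL6 mice. It rose by a log2 fold change of 0.59 (SE 0.126, 95% interval 0.32 to 0.86, edgeR adjusted p = 0.0212), or 1.51-fold, without overlap.

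*Olfml3*, a secreted olfactomedin-like protein (chr3:103722222-103738001, minus strand), was at 3.64, 5.32 and 5.12 CPM in WT and 7.38, 11.9 and 12.8 CPM in GFAP-IL6 mice. It had the largest difference of the 9 genes, a log2 fold change of 1.25 (SE 0.220, 95% interval 0.78 to 1.72, edgeR adjusted p = 0.00513), or 2.37-fold. It was also one of the 2 genes with the fewest counts, with 39 in the lowest mouse.

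*Sall1*, a zinc finger transcription factor that holds microglia in the resting state (chr8:89027235-89044162, minus strand), was at 6.14, 5.10 and 3.02 CPM in WT and 5.70, 5.47 and 5.84 CPM in GFAP-IL6 mice. The 3 GFAP-IL6 mice lay within the spread of the WT mice, of which WT mouse 3 was the lowest. The log2 fold change was 0.20 (SE 0.226, edgeR adjusted p = 0.890), with a 95% interval of -0.29 to 0.68. With 23 counts in the lowest mouse, a change of either sign within this interval was not detectable at this depth.

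The calls depended on single mice. Without GFAP-IL6 mouse 3, which had the highest CPM of the 6 mice in all 9 genes but *Sall1*, only *Olfml3* of the 9 passed (log2 fold change 1.09, edgeR adjusted p = 0.0488). *Cx3cr1* was then at a log2 fold change of 0.52 (adjusted p = 0.0904), *Tmem119* at 0.47 (adjusted p = 0.201) and *Csf1r* at 0.42 (adjusted p = 0.153). Without WT mouse 1 or WT mouse 2, 2 of the 9 genes passed, and without GFAP-IL6 mouse 1, 5 passed. Over 14 fits *Olfml3* passed in 14, *Cx3cr1* in 12, *Csf1r* in 11, *Tmem119* in 10, *P2ry13* in 3 and *Siglech* in 2, and *P2ry12*, *Gpr34* and *Sall1* in 0.

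In WT cortex *P2ry12* was the highest of the 9 genes in CPM, at 55.8 ± 2.56 (SD, n = 3), followed by *Csf1r* at 48.7 ± 3.30. *Cx3cr1* (34.5 ± 3.86), *Tmem119* (31.7 ± 2.82) and *Siglech* (28.3 ± 4.12) came next, and *Tmem119* differed from each of the other two by less than the SD of that gene. *Gpr34* (20.3 ± 1.69) and *P2ry13* (11.1 ± 0.246) were lower, and *Sall1* (4.75 ± 1.59) and *Olfml3* (4.69 ± 0.916) were lowest. Since each RNA gives about 1 fragment by its 3′ end, the study scaled no counts by length. Scaling by length therefore does not suit these counts, and the order per kilobase is no ranking of RNA abundance. Per kilobase of the deposited gene length the order was led by *P2ry12* at 22.9 ± 1.05 CPM and *Tmem119* at 14.2 ± 1.26 CPM. *Csf1r*, *Gpr34*, *Cx3cr1* and *Siglech* then lay between 8.62 and 9.97 CPM per kilobase, each within an SD of the next in this order, and *P2ry13* (4.39 CPM), *Sall1* (0.905 CPM) and *Olfml3* (0.859 CPM) followed. In GFAP-IL6 mice *Csf1r* (75.4 ± 18.6 CPM) and *Cx3cr1* (56.0 ± 12.4 CPM) had mean levels above that of *P2ry12* (55.1 ± 3.95 CPM), though *Cx3cr1* did so by less than the SD.

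Each set holds all 6 mice, so each of the 4 sets gave a technical repeat of the comparison on the same RNA. *Cx3cr1* was called in all 4 sets, with log2 fold changes of 0.80 and 0.71 with 2 ng and 1 ng in set A and of 0.70 and 0.77 in set B. *Csf1r* was called in 3 sets, at 0.65, 0.89 and 0.77, and missed in the 1 ng libraries of set B at 0.45 (edgeR adjusted p = 0.178). *Tmem119* was called with 1 ng in set A (0.72) and with 2 ng in set B (0.63). *Olfml3* was called in both 1 ng sets, at 1.34 in set A and 1.42 in set B, and not in the 2 ng sets, at 0.85 (SE 0.374, edgeR adjusted p = 0.568) and 1.33 (SE 0.362, edgeR adjusted p = 0.0833).

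Counted by set, 2 of 9 genes were called with 2 ng in set A, 4 with 1 ng in set A, 3 with 2 ng in set B and 2 with 1 ng in set B. The shares of all genes called were 1.03%, 1.1%, 1.08% and 1.08%. Without GFAP-IL6 mouse 3 none of the 9 was called in any set, and without WT mouse 1 only 1 was, with 1 ng in set A. DESeq2 called 0, 2, 1 and 2 of the 9 in the same order of sets. *P2ry12* had log2 fold changes of 0.09, -0.00018, -0.016 and -0.13 in the 4 sets and *Gpr34* of -0.02, 0.0059, 0.13 and 0.09, on either side of 0. *P2ry13* was positive in each set (0.60, 0.57, 0.49 and 0.66) and so was *Siglech* (0.27, 0.39, 0.63 and 0.43). *Sall1* spread most, from 0.65 (SE 0.339) with 2 ng in set A to -0.32 (SE 0.414) with 2 ng in set B, with as few as 3 counts in a library.

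**Figure D2:**
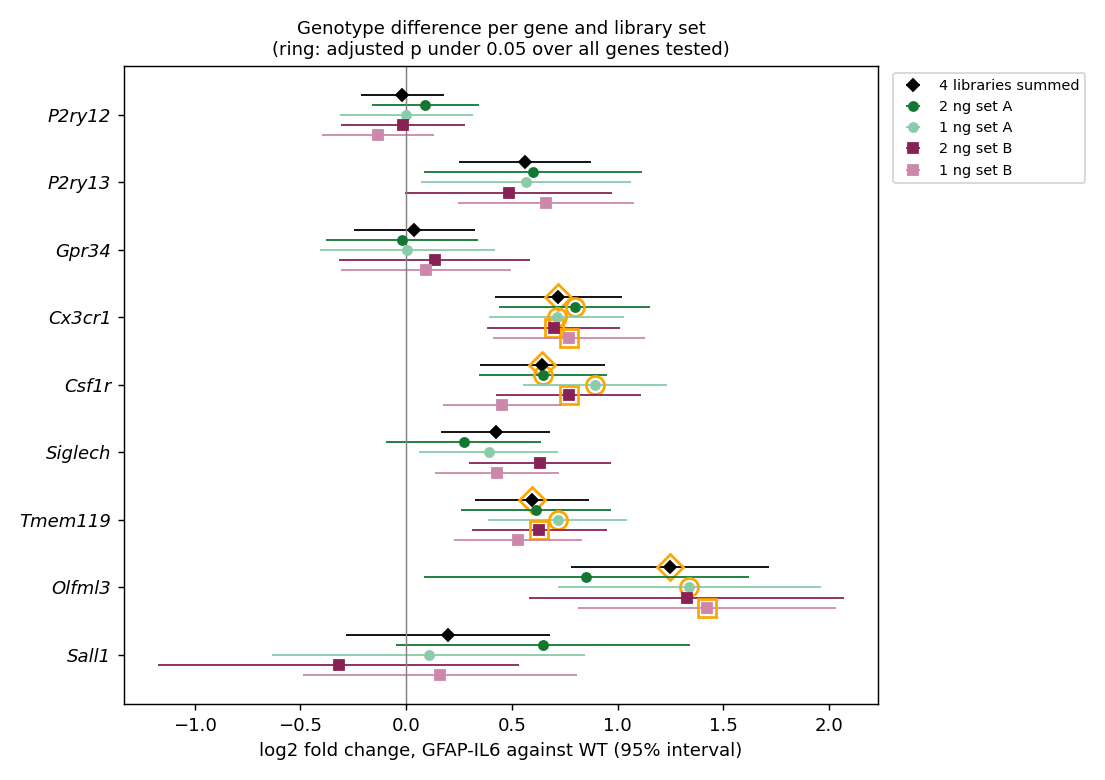
Log2 fold change between genotypes (x axis) for each gene (y axis), from the summed libraries (black diamonds) and from each set (circles for set A, squares for set B, dark for 2 ng, light for 1 ng). Bars are 95% intervals and rings mark an adjusted p under 0.05. *Cx3cr1* is ringed in all 4 sets, and *P2ry12* and *Gpr34* lie about 0 in each.

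The genotype difference was then tested for dependence on the library preparation. It differed by cDNA amount in none of the 9 genes and by set in none (edgeR interaction tests), with 0 of the 9 at an unadjusted p under 0.05 in either test. Of all 13249 genes tested, 0% passed in each test, with 269 and 708 genes at an unadjusted p under 0.05. For *Olfml3* the interval of the interaction with amount ran from -0.90 to 0.30 on the log2 scale, so a sizeable dependence was not detectable.

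The levels themselves did move with the preparation, as did those of many genes. Between set B and set A, 4 of the 9 genes differed within mice, as did 26.2% of all genes tested. *Gpr34* was lower in set B in 6 of 6 mice, at 16.2 ± 2.57 CPM (SD, n = 6 mice) against 26.0 ± 3.50 CPM in set A (log2 fold change -0.64, SE 0.0897, edgeR adjusted p = 1.01e-07). *P2ry12* was also lower in 6 of 6 mice, at 49.6 ± 3.06 against 62.6 ± 5.53 CPM (log2 fold change -0.33, edgeR adjusted p = 9.28e-05). *Tmem119* (log2 fold change 0.29, edgeR adjusted p = 0.000207) and *Csf1r* (0.19, 0.00642) were higher in set B in 6 of 6 mice each. In size, the set differences of *Gpr34* and *P2ry12* were larger than their genotype differences.

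Between 2 ng and 1 ng, 3 of the 9 genes differed, as did 26.1% of all genes tested. *Olfml3* was lower with 2 ng in 6 of 6 mice, at 6.30 ± 3.04 against 8.64 ± 4.44 CPM (log2 fold change -0.43, SE 0.138, edgeR adjusted p = 0.0155). *Gpr34* (log2 fold change 0.25, edgeR adjusted p = 0.0288) and *Cx3cr1* (0.16, 0.0334) were higher with 2 ng, each in 5 of 6 mice. The means of *Gpr34* over the 6 mice were 30.7 CPM with 2 ng and 21.4 CPM with 1 ng in set A, but 15.7 and 16.6 CPM in set B. Those of *P2ry12* were 71.0, 54.2, 48.0 and 51.2 CPM in the same order. For both genes the 2 ng libraries of set A stood above the rest, and the amount made little difference in set B. Samples are pooled after reverse transcription in this protocol, so the 6 libraries of a set may share 1 amplification and tagmentation reaction, and the p-values of these contrasts do not cover the spread between such reactions. Without the mouse as a block, none of the 9 passed between amounts.

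**Figure D3:**
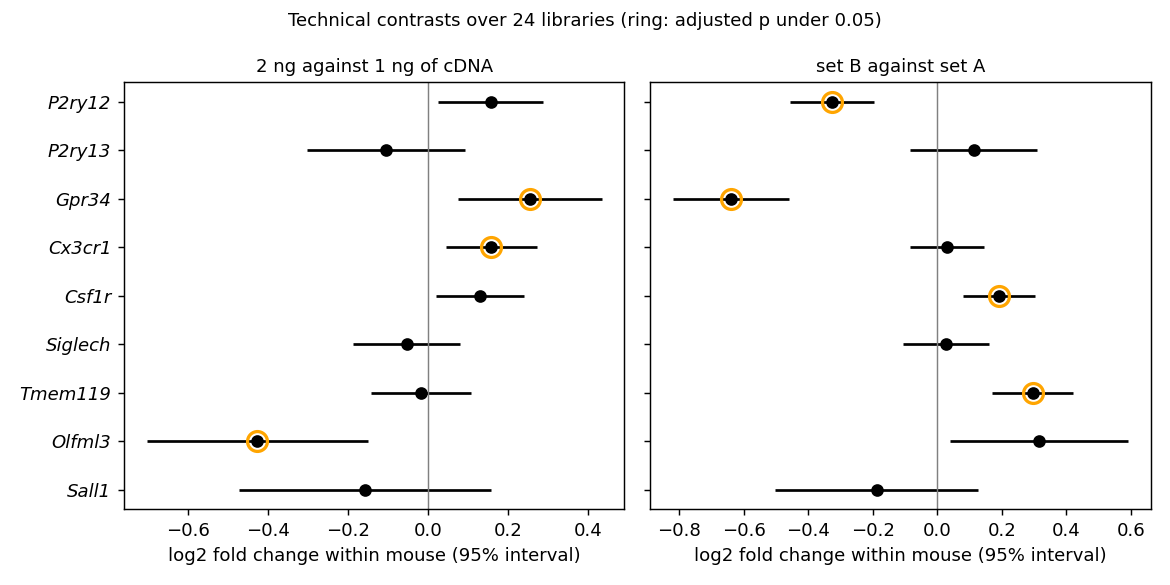
Log2 fold change within mice (x axes) of each gene between 2 ng and 1 ng of cDNA (left) and between set B and set A (right), over 24 libraries, with 95% intervals and rings at an adjusted p under 0.05. *Gpr34* and *P2ry12* lie left of 0 between sets, and *Olfml3* lies left of 0 between amounts.

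Ratios between 2 of the genes within a mouse do not depend on the scaling. Of 36 pairs, 16 had ratios that did not overlap between genotypes. The share of pairs without overlap among all genes was not computed, so this count does not set these genes apart. The pairs also share genes and are not independent. With 3 mice against 3 the smallest possible two-sided p of the exact permutation test is 0.1, which each of these 16 reached, and it is 0.225 after Benjamini-Hochberg adjustment over the 36 pairs. The log2 ratio of *P2ry12* to its neighbour *P2ry13* was 2.33 ± 0.0349 (SD, n = 3) in WT and 1.78 ± 0.204 in GFAP-IL6 mice. That of *P2ry12* to *Csf1r* was 0.20 ± 0.0320 in WT and -0.43 ± 0.281 in GFAP-IL6 mice, so that *P2ry12* had more counts than *Csf1r* in each WT mouse and fewer in each GFAP-IL6 mouse.

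*P2ry12* and *Gpr34* overlapped between genotypes in their ratio to each other, but not in most of their ratios to the rest. Each was separated from *P2ry13*, *Tmem119*, *Cx3cr1*, *Csf1r*, *Siglech* and *Olfml3*, while their log2 ratio to each other was 1.46 ± 0.161 in WT and 1.42 ± 0.169 in GFAP-IL6 mice. *Olfml3* differed in the other direction, and its log2 ratio to *Gpr34* went from -2.13 ± 0.396 to -0.98 ± 0.324. It was also separated from *P2ry13*, *Tmem119*, *Csf1r* and *Siglech*. Among *P2ry13*, *Tmem119*, *Cx3cr1*, *Csf1r* and *Siglech* no pair was separated, and no pair with *Sall1* was. Whether pairs of other genes separate as often was not tested, so no grouping of the genes is drawn from these ratios.

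The 9 genes together summed to between 230.7 and 254.6 CPM in the WT mice and between 286.4 and 384.0 CPM in the GFAP-IL6 mice. A list of 20 genes used by microglia and macrophages in general, resting or not, summed to between 789.1 and 843.8 CPM in WT and between 1809 and 2408 CPM in GFAP-IL6 mice. All 20 of these passed and were higher, 16 of them as DEGs, with a median log2 fold change of 1.26 and a lowest of 0.86. They include *Ly86* (log2 fold change 1.84), *Ctss*, a lysosomal protease (1.81), and *Ptprc*, the pan-leukocyte phosphatase CD45 (1.78), with edgeR adjusted p of 3.79e-06, 8.73e-08 and 0.00144. *Itgam*, the integrin CD11b, went from 6.03 ± 0.366 CPM to 18.1 ± 4.31 CPM (edgeR adjusted p = 7.47e-05). Of the 9 homeostatic genes, only *Olfml3* had a log2 fold change above the lowest of these 20. The list shares *Irf8*, *Spi1* and *Tyrobp* with the ligands and factors above, and *Spi1* passed in only 8 of 14 fits. It was chosen with earlier results of these data known, and its *Trem2* is also among the disease-associated genes below. Its rise is therefore no neutral measure to set the 9 genes against.

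Expressed against the summed counts of this list in the same mouse, the 9 genes took 29.6% ± 0.565 (SD, n = 3) in WT and 15.3% ± 1.06 in GFAP-IL6 mice, without overlap. *P2ry12* went from 6.90% ± 0.203 to 2.61% ± 0.385 and *Gpr34* from 2.51% ± 0.212 to 0.975% ± 0.0898. *Csf1r* went from 6.02% ± 0.260 to 3.51% ± 0.446. Taken one by one, 8 of the 9 were lower in every GFAP-IL6 mouse on this scale, as were 91.8% of all genes tested, so this count is no result about the 9 genes. *Olfml3*, at 0.579% ± 0.105 and 0.496% ± 0.0761, overlapped. Because every gene of the denominator rose, any gene that rose less is lower on this scale, and the ratio does not say how many cells there were.

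**Figure D4:**
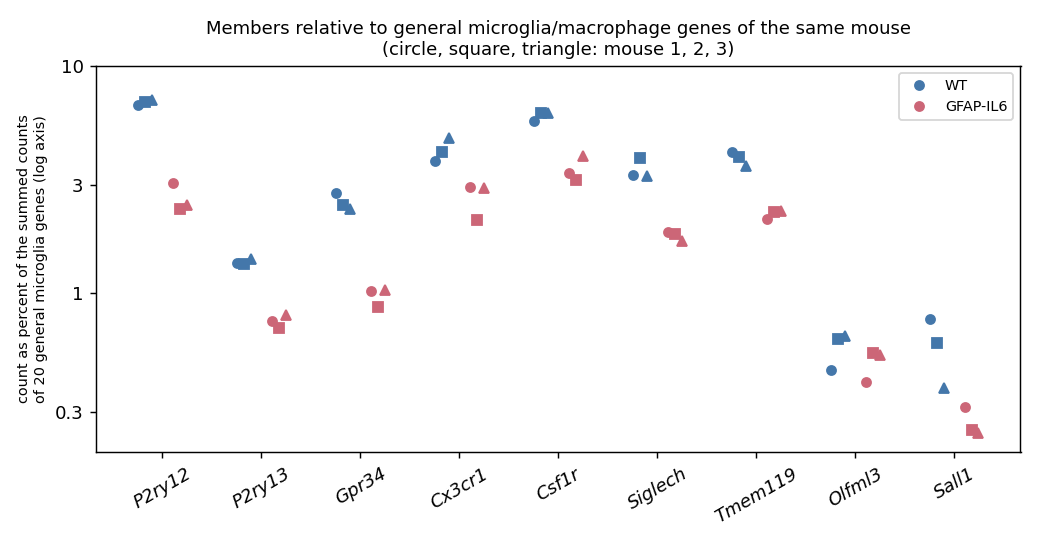
Count of each gene as a percent of the summed counts of 20 general microglia and macrophage genes in the same mouse (y axis, log scale), for WT (blue) and GFAP-IL6 (red) mice. *Olfml3* overlaps between genotypes, and the other 8 genes are lower in each GFAP-IL6 mouse, as are 91.8% of all genes tested.

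A further 15 genes linked to resting microglia were read as a list. All 15 were tested, 8 passed and were higher, 3 of them as DEGs, and none was lower by edgeR or DESeq2 or at an unadjusted p under 0.05. Their median log2 fold change was 0.74. *Pros1* (log2 fold change 1.10, edgeR adjusted p = 0.00041) codes for a ligand of phagocytic receptors and *Ltc4s* (1.03, 0.000261) for leukotriene C4 synthase. *Ecscr* (1.16, 0.000283) is also an endothelial gene. *Selplg* (0.26, 0.474) and *Gas6* (0.10, 0.861) did not pass.

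Genes that rise in disease-associated microglia were also read as a list. Of 20, 18 were tested and 5 passed and were higher, 2 of them as DEGs, with a median log2 fold change of 0.40. At an unadjusted edgeR p under 0.05 there were 11, 0 of them lower. DESeq2 called 6 higher and 0 lower. *Cst7*, a cysteine protease inhibitor, went from 0.389 ± 0.341 CPM to 5.80 ± 2.29 CPM (log2 fold change 3.75, edgeR adjusted p = 0.000151). The lipid receptor gene *Trem2*, which is also in the general list, had a log2 fold change of 1.18 (edgeR adjusted p = 2.63e-05). *Ctsd* (0.60, 0.00897) and *B2m* (0.57, 0.00612) rose less, and *Ctsd* missed without WT mouse 2 (adjusted p = 0.0608) or GFAP-IL6 mouse 3 (0.064). *Apoe*, which astrocytes also express, was at 0.31 without overlap between genotypes. It missed by edgeR (adjusted p = 0.129) and passed with DESeq2 (adjusted p = 0.0283).

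Markers of other cells were read beside these results. Of 12 markers of border macrophages, 11 were tested and none passed by edgeR or DESeq2, with 2 at an unadjusted edgeR p under 0.05, both lower. Their sum was 17.1 to 20.8 CPM in WT and 15.8 to 20.3 CPM in GFAP-IL6 mice, *Pf4* had a log2 fold change of -0.31 (edgeR adjusted p = 0.712), and *Siglec1* was at 0 in 4 mice. Of 10 monocyte and neutrophil markers, 4 were tested and none passed by edgeR or DESeq2, with 1 at an unadjusted edgeR p under 0.05. Their sum was 6.69 to 10.9 CPM in WT and 12.97 to 18.3 CPM in GFAP-IL6 mice, led by *Fn1* at 6.85 and 10.7 CPM, and *Ly6g* was at 0 in all 6 mice. Lymphocyte markers summed to between 0.525 and 3.71 CPM in WT and between 2.15 and 3.27 CPM in GFAP-IL6 mice, and the only one of 10 tested, *Cd4*, did not pass. The part of blood-derived cells in the levels of *Csf1r* and *Cx3cr1* was not tested.

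Among the other cells of the cortex, no neuronal and no oligodendrocyte marker of 10 each passed by edgeR or DESeq2, with 0 at an unadjusted edgeR p under 0.05, and their median log2 fold changes were -0.04 and -0.02. Of 10 astrocyte markers *Gfap* alone passed, with a list median of 0.16 and 3 at an unadjusted edgeR p under 0.05. Of 10 vascular markers 5 rose, with a median of 0.64, among them *Vwf*, the endothelial clotting factor gene (log2 fold change 2.22, edgeR adjusted p = 1.68e-05), *Ly6c1* (0.82, 0.0142), *Flt1* (0.70, 0.00637) and *Slc2a1* (0.58, 0.0198). *Vwf* passed in 14 of 14 fits, *Flt1* in 12, *Slc2a1* in 10 and *Ly6c1* in 9. *Ly6c1* missed with DESeq2 (adjusted p = 0.183) and without WT mouse 1, WT mouse 2, GFAP-IL6 mouse 2 or GFAP-IL6 mouse 3 (0.0595 to 0.0961). *Slc2a1* missed without the same 4 mice (0.051 to 0.126) and *Flt1* without WT mouse 2 (0.0595) or GFAP-IL6 mouse 2 (0.0565). The sum of the vascular markers, like that of the 9 homeostatic genes, was higher in the GFAP-IL6 mice. The vascular sum was highest in GFAP-IL6 mouse 2, at 405.7 CPM against 383.9 CPM in GFAP-IL6 mouse 3. The sum of the 9 was highest in GFAP-IL6 mouse 3, at 384.0 CPM against 306.2 CPM in GFAP-IL6 mouse 2. The part of vascular cells in the result was not tested.

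**Figure D5:**
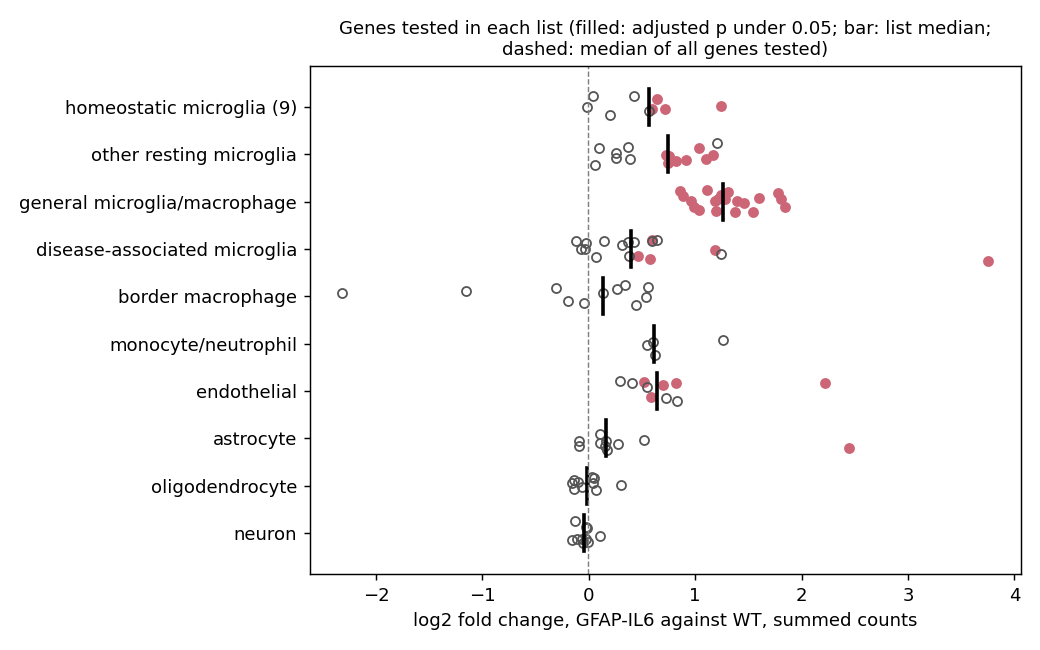
Log2 fold change between genotypes from the summed libraries (x axis) of each gene tested in 10 lists (y axis). Filled points have an adjusted p under 0.05, black bars are list medians and the dashed line is the median of all genes tested. The 9 homeostatic genes have a median of 0.56 and the general microglia and macrophage list one of 1.26.

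The mean pattern of the 9 genes over the 6 mice, each gene standardized on its log2 CPM, was carried by 6 of them. Pearson's r with this mean was 0.87 to 0.98 for *Olfml3*, *Cx3cr1*, *Siglech*, *Tmem119*, *P2ry13* and *Csf1r*, against 0.30 for *P2ry12*, 0.53 for *Sall1* and 0.61 for *Gpr34*. Each gene is part of the mean it was set against. Among 8970 genes with at least 10 CPM, the 5 outside the 9 with the highest r were *Apba3* (0.994), *Serpinh1* (0.993), *Cecr5* (0.986), *Trim41* (0.984) and *Serping1* (0.984), over 6 mice that share the genotype split. Their own differences were small to moderate, with log2 fold changes of 0.20, 0.39, 0.19, 0.10 and 0.67, and none passed (edgeR adjusted p from 0.138 to 0.890).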

How the data were processed

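Per the labels and the study's methods, the authors trimmed polyA stretches, aligned reads to mm10 with STAR 2.4 and counted them on GENCODE vM6 genes with featureCounts 1.6.3. The labels' notes also list a human build, but the identifiers are of mouse. The authors deposited raw counts without normalization, with gene lengths. The 9 genes, the other lists and the tests were chosen with earlier results of these data known. Counts of the 4 libraries of a mouse were summed and tested with edgeR 4.0.16 (quasi-likelihood, TMM, filterByExpr) in R 4.3.3, with Benjamini-Hochberg adjustment over all genes tested, and again within each set. Contrasts of cDNA amount and set had the mouse as a block. The threshold was an adjusted p of 0.05, with an absolute log2 fold change above 1 for a DEG. Alternatives were DESeq2 1.42.0, its size factors, other count filters, equal depth, a replicate block, limma-voom 3.58.1 and leaving out each mouse. The labels do not say whether mice shared a litter. Besides the 9 genes, Gfap, Il6 and genes overlapping the 9, a rule named up to 4 genes per list that passed with the largest change, up to 2 with the most counts that did not, and the 5 most alike in pattern, and it was departed from only for Il34 and Csf1, ligands of Csf1r, and for markers at 0, which were named after their values were seen. Some genes that the rule names are not reported here. Likeness used log2 CPM with a pseudocount of 0.5. Positions come from GENCODE vM21 on mm10. Promoters are from RefSeq. The test was tested on simulated data. The depth of 1524165 to 12256374 counts per library limits Sall1 and Olfml3 most.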

Additional observations from a re-analysis of the deposited data

How the results depend on the processing

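Of the 9 homeostatic genes, 4 passed between genotypes, and 4 also passed with DESeq2, its size factors, at least 10 counts in every mouse and equal depth, against 6 without a filter on low counts and 6 with limma-voom. Leaving out each mouse gave 1 to 5, fewest without GFAP-IL6 mouse 3, and 2 each without WT mouse 1 and WT mouse 2. Over all genes 263 passed, 462 without the filter, 544 with limma-voom and 146 to 321 when each mouse was left out. In the sets, DESeq2 gave 0 (2 ng) and 2 (1 ng) genes in set A and 1 with 2 ng in set B, and leaving out each mouse gave 0 to 3 and 0 to 4 in set A and 0 to 5 and 0 to 3 in set B. Between cDNA amounts, 0 passed without the mouse as a block. The 16 separated ratios became 17 at equal depth and 17 to 21 without 1 mouse, alternatives chosen after seeing the data. Ratios that do not overlap cannot come to overlap when a mouse is left out. That count could therefore not fall, and its range is no check of the 16. The causes of the other changes were not tested.

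Same-numbered mice did not deviate together (r of -0.0489, -0.0322 and -0.0335), so the numbers were not taken as pairs. With a replicate block 4 of the 9 passed on summed counts and 220 genes in all, and in the sets 2, 3, 0 and 2, the 0 with 2 ng in set B. The block turned Cd4 to 0.15.

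Log2 fold changes near 0 changed sign without single mice: P2ry12 ranged from -0.074 to 0.036, Gpr34 from -0.13 (without GFAP-IL6 mouse 3) to 0.11, Mef2c from -0.24 to 0.016, Cx3cl1 from -0.16 to 0.010, Cd4 from -0.59 to 0.99 and the neuronal Snap25 from -0.081 to 0.071. At equal depth Cd4 was at 0.11. None of these passed in any fit. Of the other values of single genes, 576 kept direction and side of the threshold, 29 fell below it and 16 passed it. The median of all genes was -0.0069 by TMM, -0.013 by DESeq2's size factors and 0.022 by library total.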
